A study of Mus musculus with 2 samples.

Results

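The 10 genes described here are markers of the alternatively activated, or scavenging, macrophage: the mannose receptor Mrc1, the scavenger receptor Cd163, the folate receptor Folr2, the Fc receptor-like gene Fcrls, the galactose-type lectins Mgl2 and Clec10a, the arginine-degrading enzyme Arg1, the secreted proteins Chil3 and Retnla, and the leukotriene enzyme Ltc4s. They were chosen by symbol, and all 10 were found in both count tables, which together list 34400 genes. The data were single-cell RNA counts, as unique molecular identifiers (UMIs), from tumours of CT26, an established mouse colon carcinoma line. One library came from mice given an antibody to SLC7A11, a subunit of the plasma-membrane exchanger that takes up cystine, and one from mice given control IgG. Dosing at 10 mg/kg, repeated every 2 days, began once tumours measured 50 to 100 mm³. The cells were injected by the caecum according to the design text, which also mentions subcutaneous growth, and the strain, age and number of mice behind a library are not given in the sources used here.

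Interleukin-4 and interleukin-13 act through the receptor chain Il4ra and the transcription factor STAT6 to switch on Arg1, Chil3, Retnla, Mrc1 and the Mgl lectins in mouse macrophages. Folr2, Cd163 and Fcrls are better known from tissue-resident macrophages and, for Fcrls, from microglia. In tumours, macrophages that express Arg1 and Mrc1 are commonly described as suppressing T cells, whereas Cxcl9 and Nos2 are read as marks of interferon-driven, classical activation.

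All 10 are protein-coding genes, with identifiers that matched the GENCODE M21 annotation of GRCm38 (mm10) in 10 of 10 cases. Mrc1 lies at chr2:14229392-14332057 on the plus strand, Cd163 at chr6:124304656-124330527 (plus), Folr2 at chr7:101839988-101857194 (minus) and Fcrls at chr3:87250758-87263738 (minus). Mgl2 at chr11:70130329-70137550 and Clec10a at chr11:70156197-70170834 are close neighbours on the plus strand. Arg1 lies at chr10:24915221-24927484 (minus), Chil3 at chr3:106147554-106167564 (minus), Retnla at chr16:48842551-48844461 (plus) and Ltc4s at chr11:50236461-50238616 (minus). Near copies share sequence, counted here as 31-base words in the last 500 bases of the transcripts. Of the words of Mgl2, 15.1% also occur in Clec10a, and of those of Clec10a 21.8% occur in Mgl2. Of the words of Chil3, 23.1% occur in Chil4, and of those of Retnla 2.55% occur in Retnlg. These are shares of words and not of reads, so they give no size of error for Mgl2, Clec10a or Chil3, which was not tested. No such word was shared by Arg1 with Arg2, Mrc1 with Mrc2, Folr2 with Folr1 or Fcrls with Fcrl1.

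The RefSeq promoter table (GRCm38.p6) held 8 of the 10 members, with 9 windows; Arg1 and Clec10a were not searched. Shown are the 250 bases before the RefSeq start of Retnla (chr16:48842359-48842608, plus strand) and Chil3 (chr3:106167565-106167814, minus strand), which alone among these 8 held a STAT palindrome, and of Mrc1 (chr2:14229164-14229413, plus strand) and Fcrls (chr3:87263525-87263774, minus strand), which stood lower in antibody macrophages. Capitals mark matches, on either strand, to TTCNNNNGAA (the STAT6-type palindrome), TTCNNNGAA (the palindrome of other STAT factors) or GAGGAA (the core of the myeloid factor PU.1).
Retnla: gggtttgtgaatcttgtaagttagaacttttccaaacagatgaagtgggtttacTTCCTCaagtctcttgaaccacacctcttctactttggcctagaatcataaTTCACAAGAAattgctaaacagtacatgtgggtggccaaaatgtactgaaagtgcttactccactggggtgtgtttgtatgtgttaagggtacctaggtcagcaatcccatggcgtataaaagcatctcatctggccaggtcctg
Chil3: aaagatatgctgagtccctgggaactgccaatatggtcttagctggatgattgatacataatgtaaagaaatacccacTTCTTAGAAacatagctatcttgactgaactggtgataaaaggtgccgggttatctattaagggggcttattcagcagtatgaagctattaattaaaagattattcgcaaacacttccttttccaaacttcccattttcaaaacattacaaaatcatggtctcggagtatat
Mrc1: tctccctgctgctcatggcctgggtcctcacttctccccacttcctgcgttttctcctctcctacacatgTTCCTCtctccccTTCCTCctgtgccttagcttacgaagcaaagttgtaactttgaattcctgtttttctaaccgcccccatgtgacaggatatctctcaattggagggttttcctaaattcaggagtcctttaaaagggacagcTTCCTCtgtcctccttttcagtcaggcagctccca
Fcrls: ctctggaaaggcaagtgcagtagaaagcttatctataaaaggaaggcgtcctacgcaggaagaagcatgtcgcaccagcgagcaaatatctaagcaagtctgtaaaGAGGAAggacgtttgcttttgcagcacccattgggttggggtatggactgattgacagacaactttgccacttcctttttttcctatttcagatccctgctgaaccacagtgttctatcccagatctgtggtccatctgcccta
TTCNNNNGAA occurred in 1 of the 8, Retnla, starting 145 bases before the start, and in 5.85% of the 32851 promoters of this length in the table. TTCNNNGAA occurred in 1 of the 8, Chil3, and in 7.02% of all promoters. GAGGAA occurred in 4 of the 8, Mrc1 (3 matches), Fcrls, Mgl2 and Retnla, and in 23.3% of all promoters. Ltc4s, which held no match, and Mgl2 also stood lower in antibody macrophages and are not shown. By the GENCODE coordinates above, most of the Fcrls window, with its match, lies inside the annotated gene. A match describes the letters of the window and is not evidence of binding.

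The antibody library held 12153 barcodes with 143658800 UMIs and the control library 13910 barcodes with 129044329 UMIs. Filtering and removal of cells ranked as doublets left 10897 antibody cells (median 7201 UMIs) and 12326 control cells (median 7052 UMIs), and 39 barcodes occurred in both libraries. The labels call the cells of both libraries goblet cells, but of 5 goblet markers the mucin gene Muc2 had 4 UMIs in each library and none of the 5 was found in more than 49 cells. Cells were therefore gated by marker UMIs, using none of the 10 genes. The C1q macrophage gate (C1qa, C1qb and C1qc with Tyrobp, Fcer1g and Csf1r) held 988 antibody and 849 control cells, with median depths of 5710 and 3622 UMIs. The C1q-low monocyte gate held 315 antibody and 76 control cells (3151 and 2214 UMIs), and the conventional dendritic cell gate 72 and 25 cells. Macrophage markers not used in the gate were present in both libraries: Adgre1, which encodes F4/80, stood at 259 and 200 CPM (counts per 1000000 UMIs of the gate), and Cd68 at 765 and 993 CPM. The macrophages of the libraries differed widely in genes outside the list. Apoe stood at 3720 CPM in antibody and 682 CPM in control macrophages, the MHC class II gene H2-Aa at 7572 and 1481 CPM, and Lyz2 at 9024 and 16606 CPM. With 1 library per group there is no replicate and no test, and 95% intervals (Poisson for levels, conditional binomial for ratios, Clopper-Pearson for shares) cover counting error only.

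Among C1q macrophages, the members differed in direction. Retnla and Clec10a were at least 2-fold higher in the antibody library, Fcrls, Ltc4s, Mgl2 and Mrc1 were at least 2-fold lower, and Folr2, Arg1 and Cd163 lay within 2-fold. Of the 9 members with at least 20 counts, the median log2 ratio of antibody to control was -0.50, beside -0.16 over all 11576 genes with that many counts. Of those genes, 8.95% were at least 2-fold higher and 4.72% at least 2-fold lower, against 2 and 4 of the 9 members. Ratios are of CPM with a prior count of 0.5. The call for Mrc1 was close to the limit and ended under 5 other settings, which gave log2 ratios from -0.98 to -0.71.

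Among the scavenging receptors, Mrc1, which binds mannose-rich glycans, had 3804 UMIs in antibody and 4241 UMIs in control macrophages, or 594 CPM (95% interval 575 to 613) and 1215 CPM (1179 to 1252). The log2 ratio was -1.03 (-1.10 to -0.97). With each cell thinned to 2000 UMIs, to set depth equal, 48.5% of 857 antibody cells (45.1 to 51.9) and 72.1% of 680 control cells (68.5 to 75.4) had a Mrc1 UMI. Without thinning, the shares were 69.3% and 79.2%. T cells, which should lack the gene, stood at 7.57 CPM in the antibody and 1.76 CPM in the control library, with Mrc1 in 2.48% of 846 cells (median depth 2635 UMIs) and 0.546% of 183 cells (1683 UMIs). The parts of free RNA, doublets and misgated cells in these T cell levels were not tested.

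Folr2, the beta folate receptor of macrophages, stood at 206 CPM in antibody and 292 CPM in control macrophages, a log2 ratio of -0.50 (-0.62 to -0.38). Its thinned shares were 23.0% (20.2 to 26.0) and 26.2% (22.9 to 29.7), and these intervals overlap, with 0.722% and 0% of thinned T cells. Cd163, the haemoglobin-haptoglobin receptor, was sparse in both, with 141 UMIs in 39 antibody macrophages and 63 UMIs in 36 control macrophages. Its log2 ratio of 0.28 had an interval that includes 0 (-0.15 to 0.74).

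Fcrls, whose product is a scavenger-type Fc receptor-like protein, was the member with the lowest ratio. It had 120 UMIs in antibody and 918 UMIs in control macrophages, 18.7 CPM (15.5 to 22.4) and 263 CPM (246 to 281), which is 14.0-fold lower in the antibody library and a log2 ratio of -3.81 (-4.10 to -3.54). Only 0.0346% of the 11576 genes had a lower ratio. With thinning, 3.27% of antibody cells (2.18 to 4.69) and 30.9% of control cells (27.4 to 34.5) had a Fcrls UMI. In cells with the gene, unthinned, the median was 1 UMI in the antibody and 2 UMIs in the control library.

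The paired lectins, which bind galactose and N-acetylgalactosamine, lay on opposite sides in macrophages. Mgl2 had 279 UMIs in antibody and 421 UMIs in control macrophages (43.5 and 121 CPM, log2 ratio -1.47, interval -1.69 to -1.25). Clec10a had 588 UMIs in antibody and 134 UMIs in control macrophages (91.8 and 38.4 CPM, log2 ratio 1.25, interval 0.98 to 1.54). The thinned shares ran the same way, with Mgl2 in 4.67% of antibody and 15.4% of control cells, and Clec10a in 9.45% of antibody cells and 34 of 680 control cells. Of thinned T cells, 1.62% of antibody and 0% of control cells had Clec10a. One antibody cell held 54 of the Mgl2 UMIs, and without the top cell of each library the Mgl2 log2 ratio was -1.70.

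Among the enzymes, Arg1, which splits arginine into ornithine and urea, differed little in macrophages. It had 4329 UMIs in antibody and 1942 UMIs in control macrophages, 676 CPM (656 to 696) and 556 CPM (532 to 582), a log2 ratio of 0.28 (0.20 to 0.36). It was carried by a minority of cells, 27.1% of antibody and 21.2% of control macrophages after thinning, against 1.08% and 1.45% of T cells, and the 10% of macrophages with the most Arg1 held 74.6% of its UMIs in the antibody library and 82.3% in the control library. Ltc4s, which makes leukotriene C4, had 64 UMIs in antibody and 174 UMIs in control macrophages (9.99 and 49.9 CPM, log2 ratio -2.31, interval -2.76 to -1.90) and was found in 1.75% and 6.62% of thinned cells. Partners of Ltc4s in leukotriene synthesis were also lower in antibody macrophages: Alox5, the 5-lipoxygenase, at 3.90 and 12.6 CPM (log2 ratio -1.68), and its activating protein Alox5ap at 418 and 681 CPM (-0.70), which was within 2-fold. Lta4h, which makes leukotriene B4, stood at 32.5 and 32.4 CPM.

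The secreted members were found in few macrophages. Chil3, a chitinase-like protein, was almost absent from macrophages, with 2 UMIs in antibody and 1 UMI in control cells. Retnla, a resistin-like protein, had 758 UMIs in antibody and 12 UMIs in control macrophages (118 and 3.44 CPM), a log2 ratio of 5.05 (4.29 to 6.06). The antibody UMIs came from few cells, so the interval, which treats UMIs as independent, is too narrow. Retnla was found in 25 of 988 antibody and 4 of 849 control macrophages. Thinned, that was 1.75% of antibody cells (0.983 to 2.87) and 0.294% of control cells (0.0357 to 1.06), and T cells of the antibody library stood at 0.181%.

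**Figure D1:**
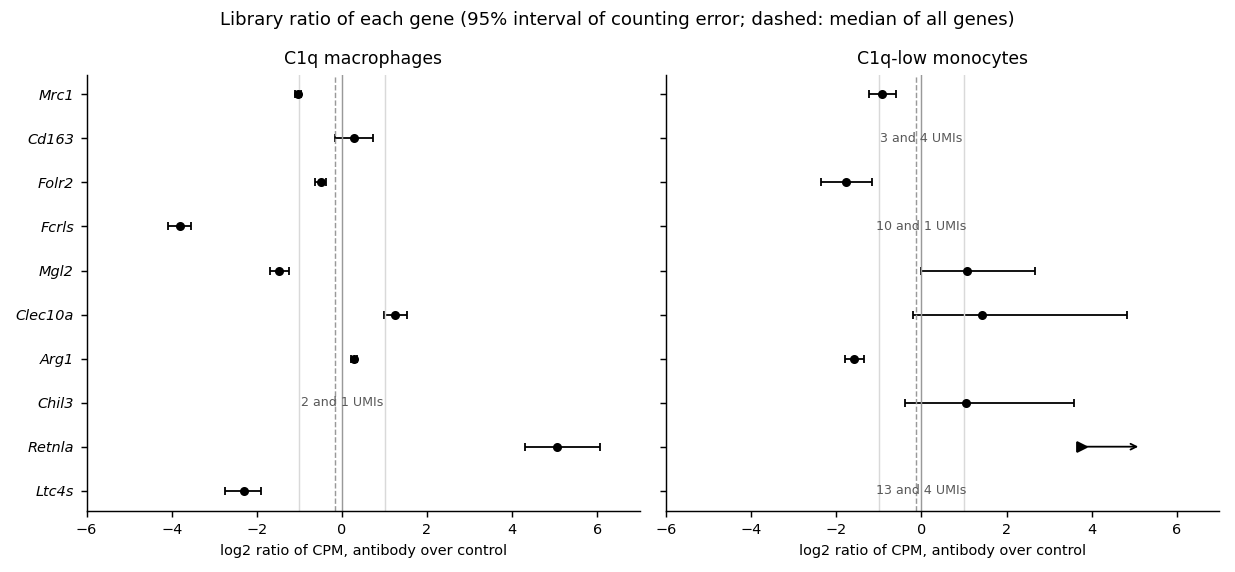
Log2 ratio of CPM (antibody over control) of each gene in C1q macrophages (left) and C1q-low monocytes (right); points are ratios, bars 95% intervals of counting error, the dashed line the median of all genes with at least 20 counts, and pale lines 2-fold. The triangle with an arrow is a lower bound, and genes under 20 counts have their UMIs written out, antibody first. Fcrls lies furthest left and Retnla furthest right in macrophages, and Arg1 lies right of 0 in macrophages and left of 0 in monocytes.

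**Figure D2:**
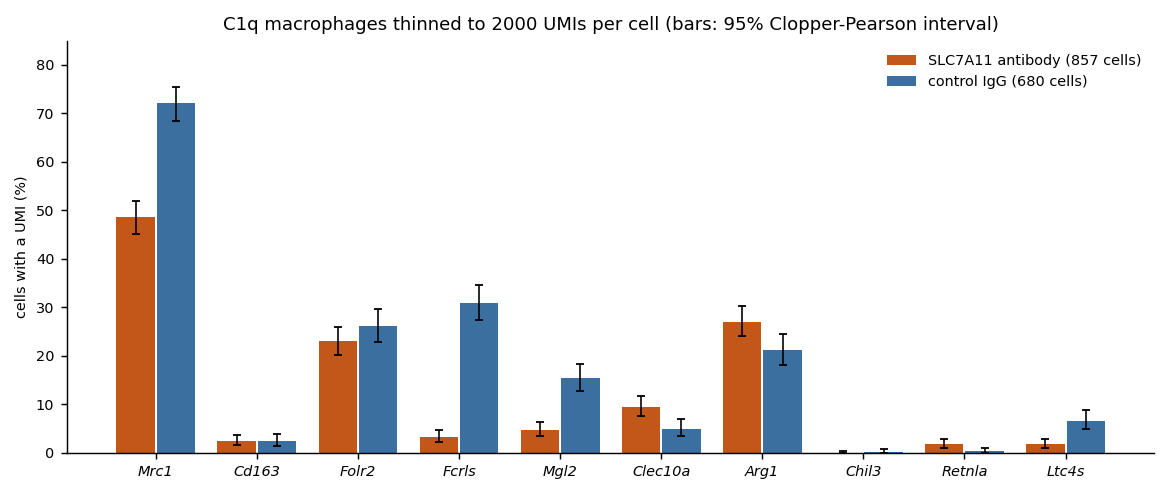
Share of C1q macrophages with at least 1 UMI of each gene after every cell was thinned to 2000 UMIs, for 857 antibody and 680 control cells; error bars are 95% Clopper-Pearson intervals. Antibody bars are the higher ones for Clec10a, Arg1 and Retnla and the lower ones for the other genes. The intervals of the libraries overlap for Folr2, Cd163, Chil3, Arg1 and Retnla.

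Retnla was concentrated in a few cells. In the antibody library 17 cells with 10 or more Retnla UMIs held 1098 of its 1210 UMIs (90.7%), 13 of them C1q macrophages, 3 C1q-low monocytes and 1 a cell in the dendritic gate. In the control library 9 cells held 18 UMIs in all, and the highest had 7. Cells ranked as doublets had been taken out, and among those there were 5 further antibody cells with 12 to 182 Retnla UMIs and 1 control cell with 66, which passed the C1q-low monocyte gate with 187 Lyz2 UMIs. Counting these, 22 antibody cells and 1 control cell reached 10 UMIs. The dendritic-gate cell had 122 Retnla UMIs and passed on 2 UMIs of Cd209a while holding 206 UMIs of Lyz2. Whether the libraries differ in the number of such cells beyond the difference between animals was not tested.

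The 25 antibody macrophages with Retnla were rich in other members. Without thinning, Mrc1 was found in 24 of the 25, against 68.6% of the 963 without Retnla. Folr2 was found in 22 of 25 and 37.3%, Clec10a in 19 of 25 and 15.2%, and Mgl2 in 12 of 25 and 5.61%. Cd163 was found in 10 of 25 and 3.01%, and Ltc4s in 10 of 25 and 2.28%. Arg1 ran the other way, in 1 of 25 (95% interval 0.101 to 20.4%) and 33.9% (30.9 to 36.9). Their depth was not higher, with medians of 4807 and 5742 UMIs. Outside the list, Ccl24, an eosinophil-attracting chemokine, was found in 18 of the 25 and 5.82% of the others, the hyaluronan receptor Lyve1 in 9 of 25 and 2.70%, and Cxcl9 in 5 of 25 and 70.9%. The 4 control macrophages with Retnla had Mrc1, Folr2, Clec10a and Ltc4s in all 4 and Arg1 in 0. Ccl24, Lyve1 and Cxcl9 were picked after their values were seen.

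**Figure D3:**
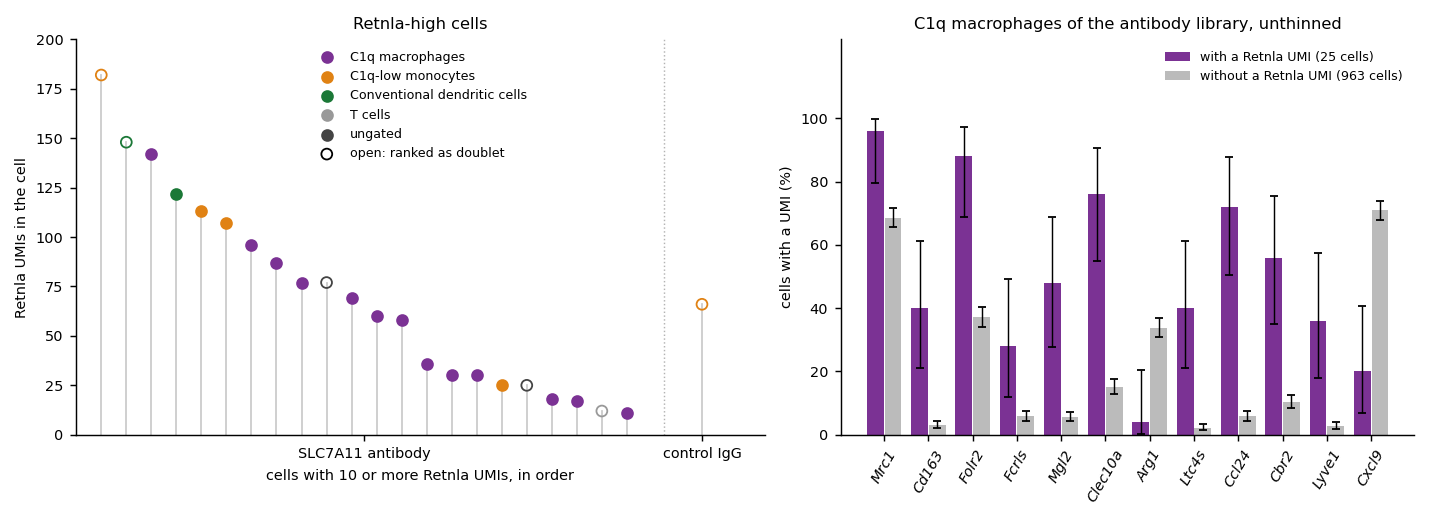
Left, Retnla UMIs of every cell with 10 or more, for 22 antibody cells and 1 control cell, coloured by gate, with open circles for cells ranked as doublets and left out elsewhere. Right, share of antibody C1q macrophages with a UMI of each gene, for 25 cells with and 963 cells without Retnla (95% Clopper-Pearson intervals): the bars for Arg1 and Cxcl9 are lower in cells with Retnla and the others are higher.

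Macrophages with Cd163 shared some partners between the libraries, and others were less certain in control cells. Without thinning, of macrophages with Cd163, 38 of 39 antibody and 35 of 36 control cells had Mrc1, and 89.7% and 83.3% had Folr2, against 36.5% and 34.2% of macrophages without Cd163. Other members ran in opposite directions: Arg1 was found in 10.3% of antibody cells with and 34.0% without Cd163, but in 33.3% and 24.7% of control cells, and Mgl2 in 20.5% and 6.11% of antibody cells, but in 5.56% and 18.6% of control cells. Clec10a was found in 69.2% and 14.5% of antibody cells and in 27.8% and 8.12% of control cells. Lyve1 was found in 43.6% of antibody cells with and 1.90% without Cd163, and in 27.8% and 2.34% of control cells. Nos2, the inducible nitric oxide synthase, was found in 0 of the 39 antibody cells (interval 0 to 9.03%) and 19.8% of the 949 others. Median depths with and without Cd163 were 4807 and 5722 UMIs in antibody and 5870 and 3572 UMIs in control cells. The number of cells with Cd163 was close between libraries, at 3.95% of antibody and 4.24% of control macrophages.

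Co-detection was examined in macrophages thinned to 2000 UMIs, within each library. Mrc1 and Folr2 went together in both: Folr2 was found in 31.7% of antibody cells with and 14.7% without Mrc1, and in 31.8% of control cells with and 11.6% without. Clec10a went with Folr2 in antibody cells (60.5% of 81 cells with Clec10a, 19.1% of 776 without). In control cells the shares were 44.1% of 34 and 25.2% of 646, which is less certain, since only 34 cells had Clec10a. Fcrls went with Mrc1, in 82.1% of 28 antibody cells with and 47.4% without Fcrls, and in 85.2% of 210 control cells with and 66.2% without. The lectins Mgl2 and Clec10a met in the same antibody cells, Clec10a being found in 42.5% (27.0 to 59.1) of 40 cells with Mgl2 and 7.83% (6.08 to 9.89) of 817 without, whereas in control cells the shares were 7.62% (3.35 to 14.5) of 105 and 4.52% (2.97 to 6.56) of 575. The transcripts of these lectins share sequence, as given above, and the part of shared sequence in their co-detection was not tested.

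Arg1 was split against the other members in the same way. In antibody cells Folr2 was found in 32.8% of 232 cells with and 19.4% of 625 without Arg1, but Cd163 in 0 of 232 (interval 0 to 1.58%) and 3.36% (2.09 to 5.09), and Clec10a in 3.88% (1.79 to 7.24) and 11.5% (9.12 to 14.3). In control cells Clec10a was at 4.86% of cells with and 5.04% without Arg1, Folr2 at 38.9% and 22.8%, and Fcrls was found in 22.9% of 144 cells with and 33.0% of 536 without Arg1. Mrc1 was found in 51.3% of antibody cells with and 47.5% without Arg1, and in 82.6% and 69.2% of control cells. Without thinning, these Mrc1 shares were 74.9% and 66.6% in antibody cells, and 83.1% and 77.8% in control cells. In thinned cells, those with Arg1 but no Mrc1 made up 13.2% of antibody macrophages (11 to 15.6) and 3.68% of control macrophages (2.39 to 5.38). Cells with Mrc1 but no Arg1 made up 34.7% and 54.6%, cells with both 13.9% and 17.5%, and cells with neither 38.3% and 24.3%. A cell held 1.22 members on average in the antibody library and 1.80 in the control library, and 32.4% and 15.9% of cells held none.

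**Figure D4:**
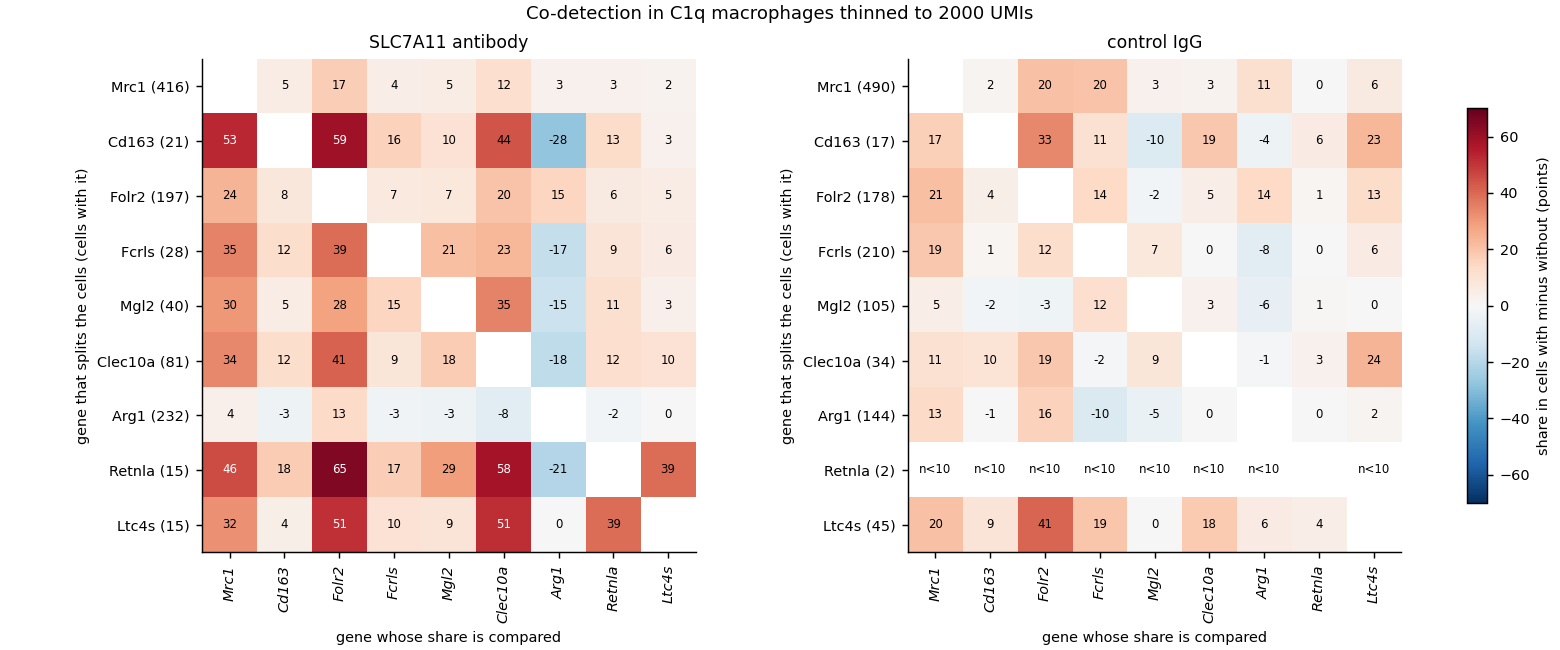
For each pair of genes, the share of C1q macrophages with the column gene among cells that have the row gene, minus the share among cells without it, in percentage points, in cells thinned to 2000 UMIs; numbers in brackets are cells with the row gene. Antibody cells are on the left and control cells on the right, rows with under 10 cells are left blank, and Chil3 is not drawn. The Arg1 column is negative for Cd163, Fcrls, Mgl2 and Clec10a in both libraries, and the Folr2 column is positive for Mrc1, Cd163, Fcrls, Clec10a, Arg1 and Ltc4s in both.

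The members were then set against classical activation genes in the same cells. In antibody macrophages, 513 thinned cells had Cxcl9 and 344 did not. Mrc1 was found in 41.5% (37.2 to 45.9) of cells with and 59.0% (53.6 to 64.3) of cells without Cxcl9, Folr2 in 17.3% and 31.4%, Clec10a in 6.82% and 13.4%, and Arg1 in 21.8% and 34.9%. Only 35 control cells had Cxcl9, with Mrc1 in 57.1% of them and 72.9% of the 645 others. Mrc1 differed less by Il1b, another classical gene. It was found in 47.8% of antibody cells with and 49.5% without Il1b, and in 71.1% and 75.2% of control cells. Folr2 was lower with Il1b (14.8% and 32.8% antibody, 20.4% and 44.7% control), as was Arg1 (21.4% and 33.8%, 18.1% and 31.1%). Mgl2 was close in antibody cells (4.71% and 4.62%) and higher with Il1b in control cells (17.3% and 9.32%). Nos2 and Arg1, which compete for arginine, met in the same cells: Arg1 was found in 49.5% (39.1 to 59.9) of 95 antibody cells with and 24.3% (21.3 to 27.5) of 762 without Nos2. In control macrophages, unthinned, Nos2 was found in 9.39% of 213 cells with and 1.42% of 636 without Arg1, at median depths of 4198 and 3475 UMIs. Trem2, a lipid-sensing receptor, was found, unthinned, in 80.4% of antibody cells with and 55.1% without Arg1, and Arg1-positive cells were somewhat deeper (6543 and 5410 UMIs). In control cells the Trem2 shares were 75.6% (69.2 to 81.2) and 66.7% (62.9 to 70.3), and these intervals overlap. Trem2 was picked after its values were seen.

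In C1q-low monocytes, Arg1, Folr2 and Mrc1 were lower in the antibody library, and Retnla, Clec10a, Mgl2 and Chil3 had ratios above 2-fold. All of these ratios rest on 76 control cells. Of the 7 members with at least 20 counts, 4 were at least 2-fold higher and 2 at least 2-fold lower, with 12.8% and 8.49% of all 6240 genes past those limits. The median log2 ratio of the 7 was 1.05, beside -0.14 over all genes, and its sign depended on the count minimum.

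Arg1 had 523 UMIs in antibody and 260 UMIs in control monocytes, 469 CPM (430 to 511) and 1398 CPM (1233 to 1578), a log2 ratio of -1.58 (-1.79 to -1.36). It was found in 15.6% of 315 antibody cells (11.7 to 20) and 28.9% of 76 control cells (19.1 to 40.5). Mrc1 stood at 311 and 591 CPM (log2 ratio -0.93, interval -1.24 to -0.60) and Folr2 at 60.1 and 204 CPM (-1.77, interval -2.36 to -1.15). The monocytes of the control library also held more Pf4, a platelet-type chemokine common in macrophages, which stood at 206 CPM in antibody and 3242 CPM in control monocytes. Whether the gates held cells of the same kind in both libraries was not tested.

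Chil3 was a monocyte gene here, with 43 UMIs in 34 of 315 antibody cells and 3 UMIs in 3 of 76 control cells (38.5 and 16.1 CPM, log2 ratio 1.05, interval -0.39 to 3.59). The intervals for Mgl2 (81 and 6 UMIs, log2 ratio 1.06, interval -0.01 to 2.66) and Clec10a (40 and 2 UMIs, 1.43, interval -0.21 to 4.83) include 0 as well. All 6 control Mgl2 UMIs came from 1 cell, and without the top cell of each library the log2 ratio was 4.53. Retnla had 247 UMIs in 5 antibody cells and 0 in control cells, which is at least 13.7-fold higher when the control is set to 3 counts over the gate. With the cells ranked as doublets left in, the control cell with 66 UMIs enters and the log2 ratio is 0.71. The other members had between 1 and 13 UMIs in either library: Ltc4s 13 and 4, Fcrls 10 and 1, and Cd163 3 and 4.

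In dendritic cells the lectins stood out. Mgl2 stood at 325 CPM (274 to 383) in antibody and 596 CPM (458 to 763) in control conventional dendritic cells, from 145 and 63 UMIs (log2 ratio -0.88, interval -1.31 to -0.42), and Clec10a at 177 and 142 CPM from 79 and 15 UMIs (0.28, interval -0.49 to 1.22). The control Mgl2 UMIs came from 6 cells, and 1 of these held 30, so the intervals, which treat UMIs as independent, are too narrow. The Mgl2 ratio turned to 1.56 with stricter gates and 0.24 with looser ones, so its direction rests on the gate. Both lectins lay mostly outside the cDC1 subset, the cross-presenting cells marked by Xcr1 and Clec9a: cDC1 held 32 of 145 antibody and 1 of 63 control Mgl2 UMIs, and 23 of 79 and 0 of 15 Clec10a UMIs. Mrc1 had 37 and 11 UMIs, none in cDC1, and a log2 ratio of -0.37 (-1.33 to 0.79). It was 0.42 with stricter and 1.57 with looser gates, 0.29 without doublet removal and 0.31 without the top cell of each library. Retnla had 123 UMIs in antibody cells and 0 in control cells, but 122 of them were in the single cell described above. Arg1, Folr2, Fcrls and Cd163 had 1 to 5 UMIs in antibody cells and none in control cells, and Chil3 and Ltc4s none in either. The 4 members with at least 20 counts had a median log2 ratio of -0.05, with 1 at least 2-fold higher and 0 lower, beside 13.7% and 8.02% of 3841 genes. In plasmacytoid dendritic cells of the antibody library, Clec10a was found in 63.0% of 54 cells (48.7 to 75.7) at 449 CPM (358 to 556), while Mrc1, Folr2, Fcrls, Chil3 and Retnla had 0 UMIs there; the control library had only 11 such cells, with 5 Clec10a UMIs.

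**Figure D5:**
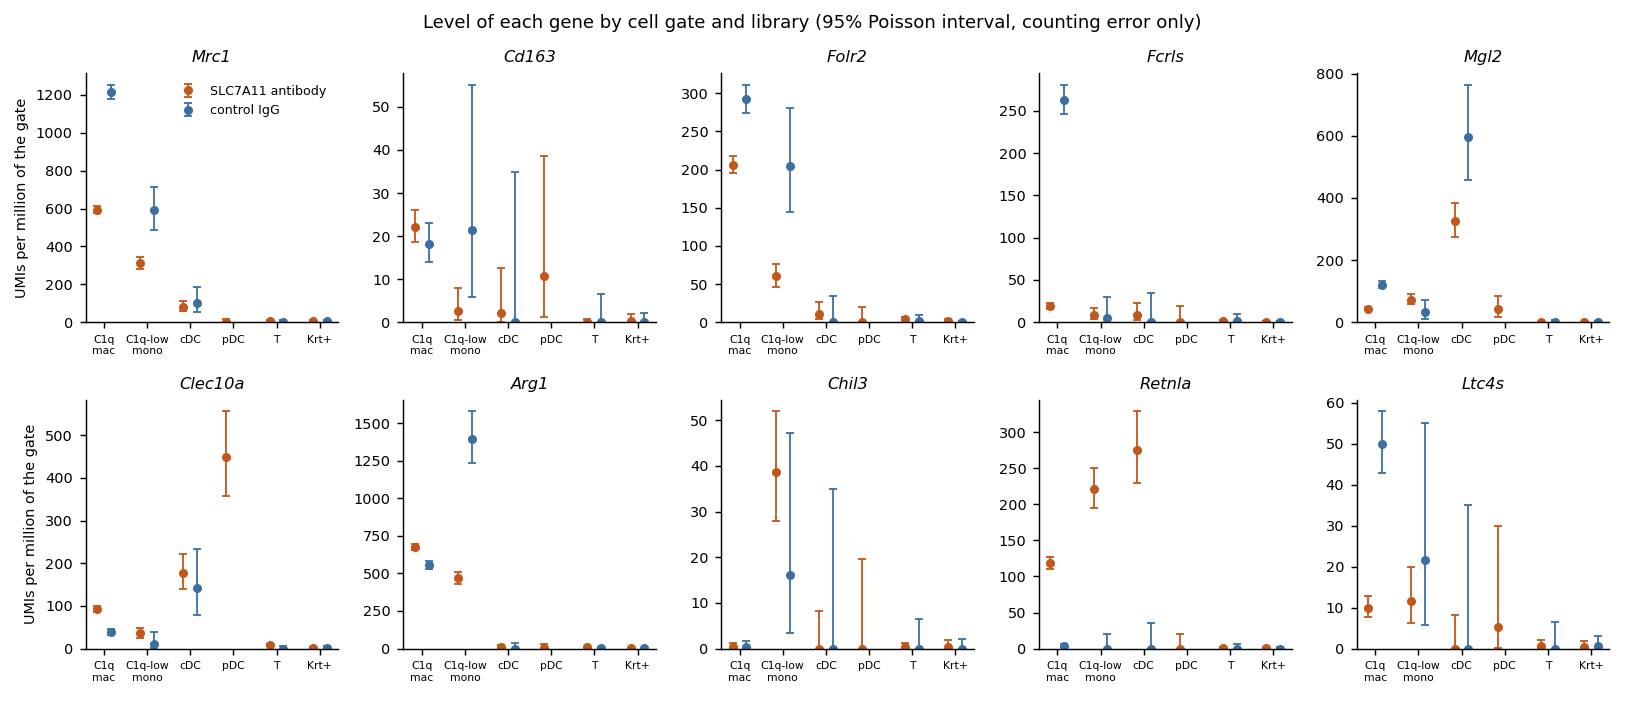
Level of each gene in CPM (linear axis from 0, scale differs by gene) in C1q macrophages, C1q-low monocytes, conventional (cDC) and plasmacytoid (pDC) dendritic cells, T cells and keratin-positive (Krt+) cells, antibody points left of control points, with 95% Poisson intervals; gates under 20 cells are not drawn. Mrc1, Folr2 and Fcrls are highest in macrophages in both libraries, Mgl2 in cDC and Chil3 in monocytes, and T and keratin-positive cells lie near 0 throughout.

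The order of gates differed by member. Mrc1, Folr2 and Fcrls were highest in macrophages, Mgl2 in conventional dendritic cells and Chil3 in monocytes in both libraries. The intervals of the leading gate and the next did not overlap for Mrc1 and Mgl2 in either library. For Folr2 in the control library, macrophages (292 CPM, 275 to 311) and monocytes (204 CPM, 145 to 280) did overlap. In the antibody library, Fcrls in macrophages (15.5 to 22.4 CPM) overlapped monocytes (4.30 to 16.5 CPM). Chil3 in antibody monocytes (27.9 to 51.9 CPM) overlapped neutrophils (1.96 to 58.6 CPM). Arg1 was highest in macrophages in the antibody library and in monocytes in the control library. Over the 18 gate and library sums with at least 20 cells, Pearson correlations of log2(CPM + 10) were 0.96 for Arg1 with Folr2, 0.92 for Folr2 with Mrc1 and 0.82 for Mgl2 with Clec10a. These points share libraries and differ strongly in cell type, so the correlations describe where the genes are expressed. By the same measure the closest genes outside the list were Clec4a2 (0.95) for Mrc1 and Ms4a7 (0.98) for Folr2. The histidine-degrading enzyme Hal (0.98) was closest to Arg1, the ion channel Trpv4 (0.94) to Fcrls and the sterol hydroxylase Cyp27a1 (0.96) to Clec10a. Further closest genes were Gm6377 (0.96) for Mgl2, Lrp12 (0.92) for Cd163, Lyz1 (0.97) for Retnla and Gm30382 (0.90) for Ltc4s. The Retnla value rests on few cells, since 17 antibody cells held 90.7% of its UMIs in that library.

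Genes upstream of the members and of neighbouring programmes were set beside them. Over all genes, 8.95% were at least 2-fold higher and 4.72% at least 2-fold lower in antibody macrophages, and the counts that follow stand beside those shares. Il4 and Il13 had 0 UMIs in macrophages, monocytes and conventional dendritic cells of both libraries. In control T cells Il13 had 6 UMIs and Il4 had 1 UMI, against 0 of either in antibody T cells. The mast cell and basophil gate was not examined for these genes. Of 14 genes of IL-4 and IL-13 signalling, 11 had at least 20 counts in macrophages, of which 2 were at least 2-fold higher and 0 lower in the antibody library: the shared receptor chain Il2rg (199 and 83.7 CPM, log2 ratio 1.24) and the feedback inhibitor Socs1 (12.2 and 2.01 CPM, 2.51). Il4ra stood at 87.6 and 122 CPM (-0.48) and Stat6 at 51.7 and 55.3 CPM (-0.10). Of 20 further alternative activation and resident macrophage genes with enough counts, 7 were at least 2-fold higher, among them the chemokine Ccl8 (7998 and 1102 CPM, 2.86), and 4 at least 2-fold lower, namely Pf4, Cbr2, Lyve1 and Ccl22, with a median log2 ratio of -0.44. Of 12 classical genes, 4 were at least 2-fold higher, among them Cxcl9 (1571 and 61.0 CPM, 4.68), Nos2 (82.9 and 11.5 CPM, 2.84) and Ptgs2 (1.10), and 1 lower, Il1b (-1.24), with a median of 0.06. Among near copies of members, Arg2, the mitochondrial arginase, stood at 134 and 115 CPM (0.21), and Mrc2 (44 and 11 UMIs) and Cd209b (38 and 8 UMIs) were more than 2-fold higher.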

How the data were processed

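Per the labels' protocols, tumours were dissociated enzymatically and sequenced with 10x 3' chemistry. The authors deposited unnormalised UMI counts; Cell Ranger 7.2.0, Seurat and mm10 are named in the submitters' processing notes. Barcodes under 200 genes or 500 UMIs, or with 20% or more mitochondrial UMIs, were dropped. Scrublet (scanpy 1.11.5) called 569 antibody and 0 control doublets at its own threshold, so doublets were taken by rank of score at 0.8% per 1000 cells, which removed 1164 antibody and 1537 control cells. Free RNA was not corrected. A member level in a gate is the sum of its counts over cells; CPM is per 1000000 UMIs of the gate.

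Gates (UMIs per cell) were: macrophages, C1q genes at least 5 and 0.1% of UMIs, with Tyrobp, Fcer1g and Csf1r at least 2; monocytes, C1q under 0.05%, Lyz2 at least 5 and 0.2%, and Ccr2, Ly6c2, Vcan and F13a1 at least 2; conventional dendritic cells, Flt3, Xcr1, Clec9a, Zbtb46 and Cd209a at least 2, or Ccr7 and Fscn1 at least 2 each, with MHC class II genes at least 5 and 1%. Plac8 and Gata2 were dropped and the shares of UMIs added after Plac8 was seen in keratin-positive cells. Cells passing several lineages were set aside. The members, gene lists and tests were chosen with earlier results of these data known. All members are named wherever a library has at least 10 counts; genes of like pattern are the closest by correlation, and pathway genes are named past 2-fold or as partners of a member. Ratios have no p-value, as each group is 1 library. The ratio and its interval were tested on simulated data. Tools were scipy 1.17.1, pandas 2.3.3, matplotlib 3.10.9 and numpy 2.4.6, run in Python 3.11.15.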

Additional observations from a re-analysis of the deposited data

Results flagged for a closer look

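Arg1 differed in direction between cell types: its log2 ratio of antibody to control was 0.28 in C1q macrophages and -1.58 in C1q-low monocytes. This difference between cell types was not tested, since each group is 1 library.

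Cells that passed no gate, 8105 antibody and 10878 control cells at median depths of 10105 and 7788 UMIs, also held UMIs of members. The 7 members given here stood above the control level, and the others are not given. The share of all genes above the control level in ungated cells was not counted, so the 7 are no result about the members. Arg1 stood at 10.9 CPM in ungated antibody cells and 5.36 CPM in ungated control cells, and Mrc1 at 10.2 and 6.64 CPM. Clec10a stood at 2.91 and 0.963 CPM, Folr2 at 2.45 and 1.34 CPM, and Mgl2 at 1.73 and 0.456 CPM. Ltc4s stood at 1.27 and 0.404 CPM and Retnla at 0.715 and 0.0621 CPM. T cells of the antibody library stood at 8.25 CPM for Arg1 and 7.57 CPM for Mrc1. What part free RNA has in these levels was not tested.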

How the results depend on the processing

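No paired analysis was possible because each group is 1 library. In C1q macrophages the median log2 ratio of the members, -0.50, was -0.25 without doublet removal, -0.35 with median-of-ratios scaling, -0.30 as means over scaled cells and -0.32 with a count minimum of 0. No member with at least 20 counts in that gate changed direction under any setting tried. In C1q-low monocytes the median of 1.05 reversed to -0.35 with a count minimum of 0 and -1.25 with one of 100. With the minimum of 0 the sparse members enter, and with that of 100 Mgl2, Clec10a and Chil3 drop out and 4 members remain. In conventional dendritic cells the median of -0.05 was 1.18 with looser gates and 2.49 with a count minimum of 100. The fitted log2 ratio of Retnla in dendritic cells was -0.80 with stricter gates and -0.49 without the cell with the most Retnla. The second value rests on 1 antibody and 0 control UMIs and on the prior count, so its sign gives no direction. Arg1 in monocytes ranged from -2.41 with the gates as first drawn to -1.02 with stricter gates, and Mgl2 there was 4.53 without the top cell of each library. Of the 10 members, 3 had higher shares of cells in the antibody library after thinning and 5 without thinning, which counts deeper antibody cells. The excess of Folr2 in antibody cells with Mrc1, 17.0 points, was 27.1 points unthinned. The causes of the other moves were not tested. The settings with the gates as first drawn and without the top cell were chosen after seeing the data. Depth limits Chil3, Cd163 and every monocyte and dendritic ratio, where the control library has 76 and 25 cells.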

Other observations

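In conventional dendritic cells of the antibody library the chemokines Ccl17 and Ccl22, which attract CCR4-bearing T cells and are commonly counted among alternative activation genes in macrophages, had 67 and 91 UMIs, against 2 and 1 UMIs in control dendritic cells (150 and 18.9 CPM for Ccl17, 204 and 9.47 CPM for Ccl22). In macrophages, Ccl22 had 14 antibody and 22 control UMIs. Ear2, an eosinophil-associated ribonuclease, was found in 3 of 25 antibody macrophages with Retnla and 0.415% of those without, and Lyz1, the Paneth-type lysozyme gene, in 7 of 25 and 4.98%. The 3 kept monocytes with 10 or more Retnla UMIs held 94, 1 and 58 Lyz1 UMIs, and the control cell with 66 Retnla UMIs held 42.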
